A study of Canis lupus familiaris with 12 samples.

Results

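HU-HSA-2 is a cell line that the study established from the splenic tumor of a dog with hemangiosarcoma, a cancer that arises from the lining of blood vessels. The response described here is the difference in mRNA between HU-HSA-2 cells kept without glucose and HU-HSA-2 cells kept with it. The libraries labelled without glucose came from cells grown for 48 h in medium with 0 mM glucose, and those labelled with glucose from cells grown for the same time at 25 mM. Both groups were grown in DMEM with fetal bovine serum, penicillin and streptomycin, and the study coated the dishes with gelatin. Each condition had 3 libraries, so that 6 of the 12 libraries of the series entered the comparison. The table of this line lists 30951 Ensembl gene identifiers. Of these, 17626 had a count in at least 1 of the 6 libraries and 13155 had one in every library. The count filter kept 12035, which are the genes described below and which held 99.9% of the counts of every library. HU-HSA-2 is a single line from a single tumor. The study states culture in triplicate, while the labels do not say whether the 3 libraries of a group came from separate cultures. The p-values below therefore measure the spread between these libraries, which may be technical.

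Glucose feeds glycolysis, the pentose phosphate pathway and the synthesis of serine, glycine and nucleotides, and endothelial cells are known for their reliance on glycolysis. Cells that lose glucose can fall back on glutamine and fatty acids as fuels of the mitochondria. Loss of nutrients is also known to activate the integrated stress response, in which the transcription factor ATF4 raises genes of amino acid synthesis, amino acid import and redox control. The study was about lysine lactylation, a mark derived from lactate on histones and possibly other proteins, in cells deprived of glucose. The RNA libraries described here measure transcript levels and not the mark.

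The 6 libraries held 10659011 to 13405159 rounded expected counts, with a median of 10929656 in the group at 25 mM and of 13353958 in the group at 0 mM. TMM normalization, which scales the libraries by the bulk of their genes, moved these totals little, with factors of 0.984 to 1.01. The 10 most abundant genes took 6.92% to 7.55% of the counts at 25 mM and 7.58% to 8.32% at 0 mM. Principal components were computed on log2 CPM, in which counts are scaled to the library total. On the first component, which held 42.2% of the variance, the libraries at 25 mM lay between -17.4 and -15.9 and those at 0 mM between 13.5 and 20.1. The second component held 17.3% and set 0 mM replicate 2 (-17.5) apart from 0 mM replicates 1 and 3 (7.67 and 13.3). No pair of libraries held identical values. Endothelial identity was checked on 3 markers in TPM, a level scaled for gene length and library total. PECAM1, the adhesion molecule CD31 of endothelial junctions, averaged 1120 TPM at 25 mM and, by its mean over the 6 libraries, lay above 99.0% of the tested genes. KDR, a receptor of vascular endothelial growth factor, averaged 74.3 TPM and, ranked the same way, lay above 79.9%, whereas VWF, the von Willebrand factor stored and secreted by endothelial cells, averaged 0.477 TPM and lay above only 1.87%. PECAM1 and KDR were thus well expressed, and VWF was close to absent at the mRNA level. Markers of other cell types were not analysed here.

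Glucose deprivation for 48 h changed many genes by small amounts. By edgeR's quasi-likelihood test, with p-values adjusted by the method of Benjamini and Hochberg and a threshold of 0.05, 1583 of the 12035 genes differed between the groups, which is 13.2%. Of these, 897 (7.45%) were higher without glucose and 686 (5.7%) were lower. Without adjustment, 3334 genes (27.7%) had a p-value under 0.05 in the same test. Among the genes called higher, the median log2 fold change was 0.392, which is a rise of 1.31-fold, and the middle 50% of the genes lay between 0.271 and 0.627. Among the genes called lower, the median fall was smaller, at 0.321 on the log2 scale or 1.25-fold, and the middle 50% of the falls lay between 0.25 and 0.431. Standard errors were small, with a median of 0.075 on the log2 scale for the genes called higher and 0.0714 for those called lower, which the test itself favors, since it calls genes whose change is large against its error. These are bulk libraries, in which fewer cells of a kind and less RNA per cell cannot be told apart. Fewer genes passed when 25 mM replicate 2 (920) or 25 mM replicate 3 (907) was left out, in which the group with glucose rested on the remaining pair of libraries.

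The balance of rises and falls moved with the size of the change. Among the 403 called genes that changed by less than 1.2-fold, 201 rose and 202 fell, and among the 841 between 1.2-fold and 1.5-fold, 441 rose and 400 fell. Together these small changes made up 25.5% and 53.1% of all called genes. Between 1.5-fold and 2-fold the rises outnumbered the falls, with 169 against 62. Between 2-fold and 3-fold there were 57 rises and 13 falls, between 3-fold and 4-fold 20 and 5, and beyond 4-fold 9 and 4. The excess of rising genes was thus found mostly among the changes of at least 1.5-fold, while the smaller changes were nearly balanced. The overall majority of rising genes depended on the scaling of the libraries. With library totals alone, without TMM, 796 genes were higher and 833 lower, which is 48.9% higher against 56.7% in the values above.

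**Figure D1:**
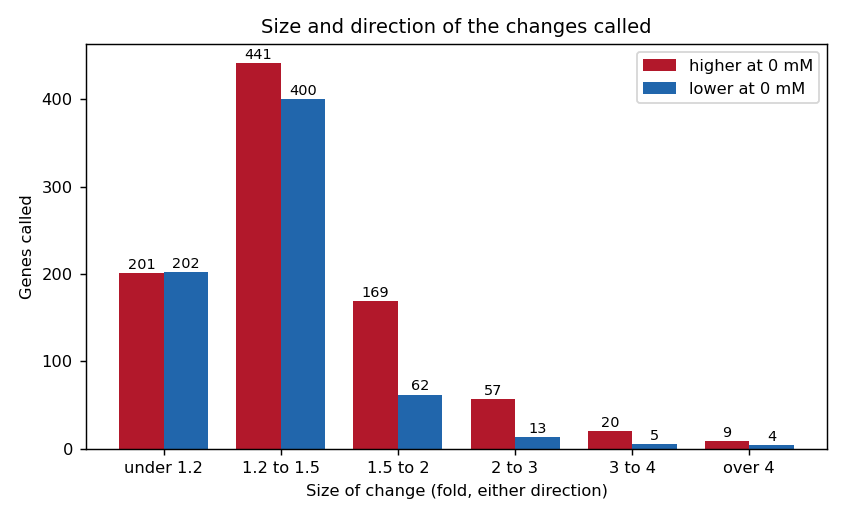
Number of genes called higher (red) and lower (blue) at 0 mM glucose in HU-HSA-2 cells, by the size of the change in fold (horizontal axis, either direction). The bars for 1.2 to 1.5-fold are the tallest in both directions (441 and 400 genes), and from 1.5-fold upward the red bars exceed the blue ones in every band.

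Large changes were few. A change beyond 1 on the log2 scale, which is a change of 2-fold, was found in 108 called genes, 0.897% of those tested, with 86 higher (0.715%) and 22 lower (0.183%). These genes were mostly of low abundance. The median of their mean levels was 3.68 CPM for the 86 that rose and 4.18 CPM for the 22 that fell, against 30.2 CPM over all tested genes. A test of the size itself (glmTreat of edgeR, which asks whether a change exceeds a stated fold) left 59 genes beyond 1.5-fold, which is 0.49% of those tested, 47 higher (0.391%) and 12 lower (0.0997%). The same test left 296 genes (2.46%) beyond 1.2-fold, 227 higher (1.89%) and 69 lower (0.573%). Beyond 2-fold it left 13 (0.108%), 11 higher (0.0914%) and 2 lower (0.0166%). Without 25 mM replicate 3, the count beyond 1.5-fold was 38. The 90th percentile of the changes was 0.983 on the log2 scale (1.98-fold) among rising genes and 0.63 (1.55-fold) among falling genes. All 13 tested genes with a fitted change beyond 4-fold were called, whereas of the 9019 tested genes with a fitted change under 1.2-fold 4.47% were.

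The identifiers with the largest changes that passed the threshold, averaged at least 1 CPM and had groups that did not overlap were described without a symbol, since the tables give none. The largest fall was that of ENSCAFG00000030766. It had 551, 713 and 602 counts in replicates 1, 2 and 3 at 25 mM and 94, 95 and 97 at 0 mM, or 50.2, 55 and 56.2 CPM against 7.97, 7.12 and 7.39 CPM. All 3 libraries without glucose lay far below the lowest library with glucose. The log2 fold change was -2.85 (SE 0.09, adjusted p = 1.41e-09 by edgeR's quasi-likelihood test), a level 0.139 times that at 25 mM with a 95% interval of 0.121 to 0.16. It averaged 336 TPM at 25 mM and 45.3 TPM at 0 mM, and by its mean over the 6 libraries it lay above 93.7% of the tested genes. By TPM it was thus well expressed. By CPM, the measure used for the large changes above, it averaged 53.8 at 25 mM and 7.49 at 0 mM. Among 5 classes of abundance by log2 CPM, counted from the least abundant, it was in class 3. Its CPM in both groups was above the median of 4.18 of the 22 large falls. ENSCAFG00000011405 fell from 42.6, 37.1 and 40.1 CPM to 8.23, 5.99 and 9.68 CPM, a log2 fold change of -2.33 (SE 0.14, adjusted p = 1.95e-07 by edgeR's quasi-likelihood test). The groups did not overlap, and the ratio of 0.2 had a 95% interval of 0.163 to 0.244. Leaving out each library in turn moved the log2 fold change of ENSCAFG00000030766 between -2.89 and -2.81 and that of ENSCAFG00000011405 between -2.5 and -2.15.

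The largest rises were those of genes with few counts. ENSCAFG00000029858 had 8, 0 and 5 counts in replicates 1, 2 and 3 at 25 mM and 40, 32 and 22 counts at 0 mM. Its log2 fold change was 2.68 (SE 0.57, adjusted p = 0.0075 by edgeR's quasi-likelihood test), and the 95% interval of the ratio ran from 2.72 to 15. Its expected count was not a whole number in 5 of the 6 libraries, a mark of reads that are shared with another gene and were divided by the authors' software, so that this rise and a rise of a gene that shares its reads cannot be told apart. ENSCAFG00000016159 had 5, 2 and 3 counts at 25 mM and 17, 24 and 30 counts at 0 mM, all of them whole. Its log2 fold change was 2.63 (SE 0.46, adjusted p = 0.0021 by edgeR's quasi-likelihood test), with a 95% interval of the ratio of 3.1 to 12.4. In both genes each library without glucose was above each library with it, but the size of the rise was poorly fixed, and both averaged under 4 TPM at 0 mM (1.37 TPM for ENSCAFG00000029858 and 3.76 TPM for ENSCAFG00000016159). Leaving out single libraries moved the log2 fold change of ENSCAFG00000029858 between 2.02 and 3.48, and that of ENSCAFG00000016159 between 2.29 and 3.07.

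**Figure D2:**
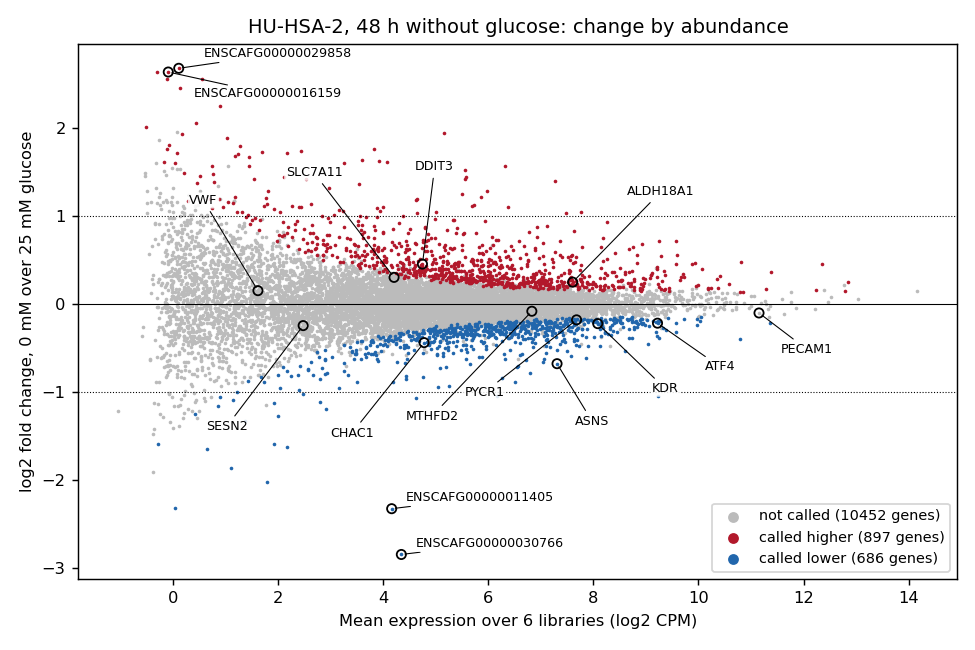
Log2 fold change of 0 mM over 25 mM glucose (vertical axis) against mean log2 CPM over the 6 libraries (horizontal axis) for the 12035 tested genes of HU-HSA-2. Genes called higher are red, called lower blue and not called grey, with the genes described in the text circled. Dotted lines mark a change of 1. The cloud of called genes narrows from left to right, and ENSCAFG00000030766 (-2.85) and ENSCAFG00000011405 (-2.33) are at the bottom among the 4 falls beyond 4-fold.

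The share of genes called rose with abundance. When the genes were divided into 5 classes of 2407 by mean log2 CPM, 4.57% of the least abundant class were called, followed by 8.77%, 13.2%, 16% and 23.3% of the most abundant class, whose median level was 172 CPM. With fewer counts a change has to be larger to pass. The smallest change that passed was 0.591 on the log2 scale in the least abundant class, where the median gene had 28.3 counts per library, and 0.133 in the most abundant class, where it had 2090. The median change of called genes fell in the same order, from 1.12 through 0.574, 0.389 and 0.31 to 0.261. The classes therefore differed in what could be detected, and their shares do not compare how often genes of low and high abundance responded. In the most abundant class 13.3% of the genes were called when 25 mM replicate 2 was left out, and 13.1% when 25 mM replicate 3 was. That of the least abundant class was 2.75% without 25 mM replicate 1, 2.39% without replicate 2, 2.29% without replicate 3 and 2.87% without 0 mM replicate 1.

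The direction of the calls also moved with abundance. In the least abundant class 80 genes were higher and 30 lower, so that 72.7% of the calls were rises. In the next classes the share of rises was 64%, 59.6% and 52.7%, and in the most abundant class, with 290 genes higher and 270 lower, it was 51.8%. When the classes were formed by TPM instead, which takes gene length into account, the shares were 72.7%, 66.4%, 55.4%, 50.1% and 53.3%. The smallest change called was 0.591 in the least abundant class by log2 CPM and 0.133 in the most abundant. Rises outnumbered falls among all called changes of at least 1.5-fold. Whether direction followed abundance apart from the size of the change was not tested. Large changes were concentrated at the low end, which held 69 of the 108 changes beyond 1 on the log2 scale (54 higher, 15 lower), against 4 in the most abundant class (3 higher, 1 lower). The median effective length of the genes, relative to the median of all genes, was 1.08 for those called higher, 1.16 for those called lower and 0.977 for those not called, and its part in the result was not tested.

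**Figure D3:**
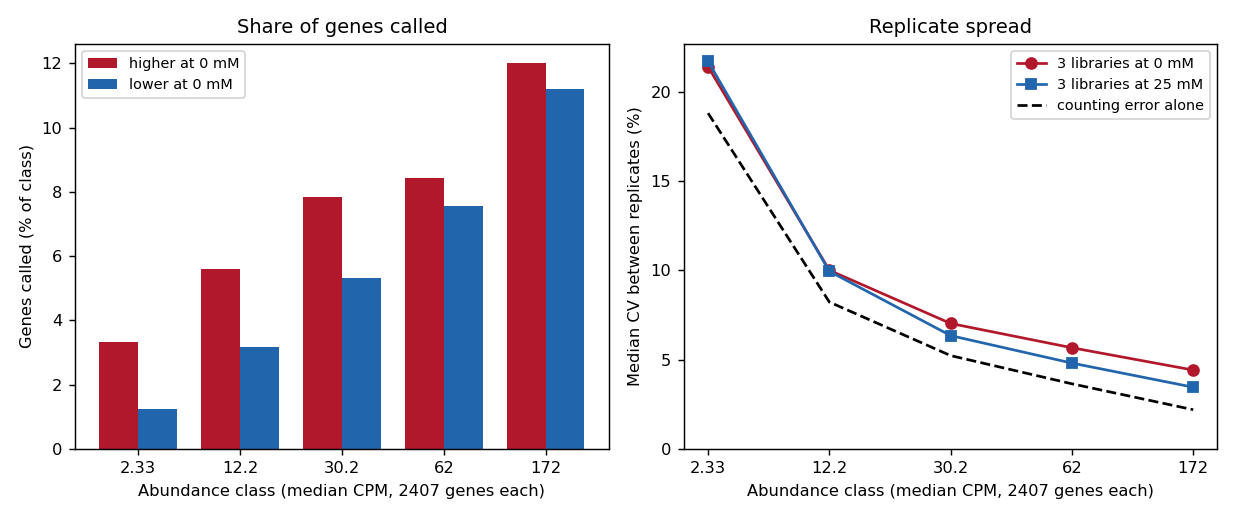
Left, percentage of the 2407 genes of each abundance class called higher (red) or lower (blue) at 0 mM glucose, with the median CPM of the class on the horizontal axis. Right, median coefficient of variation between the 3 replicates at 0 mM (red) and at 25 mM (blue), with the error expected from counting alone as a dashed line. The share called rises from 4.57% to 23.3% while the spread falls from over 21% to under 5%.

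Among the genes that made up most of the mRNA, the called changes were small. The 1000 most abundant genes held 54.7% of the counts, and 149 of them were higher and 122 lower without glucose (27.1% called, against 13.2% of all genes, at a depth where smaller changes can pass). Only 2 of them changed by more than 1 on the log2 scale. Of the 100 most abundant genes, which held 22% of the counts, 21 rose and 6 fell, with a largest rise of 0.478 and a largest fall of 0.402 on the log2 scale. Of the 10 most abundant, each at 4820 CPM or more, 4 rose and 0 fell by the same test, and the largest rise was 0.459. All 10 fitted log2 fold changes were above 0, the smallest being 0.0213.

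The response was also measured as the share of each library that the called genes took. The genes were called on these same libraries, so the calls give the direction of the shares and favor shifts that are large against the spread between replicates, and the values are a description. The 897 genes called higher took 12.6%, 12.4% and 12.6% of the library totals at 25 mM and 15.4%, 15.6% and 15.3% at 0 mM. The mean rose from 12.5% ± 0.0729 to 15.4% ± 0.167 (SD, n = 3 each), a gain of 2.89 percentage points. The 686 genes called lower took 9.67%, 9.97% and 9.84% at 25 mM and 8.02%, 7.85% and 7.92% at 0 mM, a loss from 9.82% ± 0.149 to 7.93% ± 0.0845 (SD, n = 3 each). The 108 genes with large changes held little of this RNA. The 86 that rose took 0.102% of the counts at 25 mM and 0.24% at 0 mM, and the 22 that fell went from 0.119% to 0.0528%. The loss of the lower genes was -1.11 percentage points when 25 mM replicate 2 was left out, and -1.14 when 25 mM replicate 3 was.

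The gain was spread over many genes. The following values are TMM-normalized CPM, a scale on which gain and loss differ somewhat from the shares of the library totals above. Of the 30800 CPM added by the genes called higher, 64 genes supplied 50% and 449 supplied 90%. The largest single gene supplied 1660 CPM, which is 5.4%, with a log2 fold change of 0.46 at a mean level of 5280 CPM. Of the 17700 CPM lost by the genes called lower, 105 genes accounted for 50% and 422 for 90%, and the largest single gene for 498 CPM or 2.81%. Genes that changed by more than 1 on the log2 scale supplied 4.55% of the gain and 3.65% of the loss, whereas the most abundant class supplied 78.7% and 75.3%. That class held 73.5% of all normalized counts, so that its parts in the gain and the loss were close to its part in the RNA as a whole.

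For most genes the data also set an upper limit on the change. The 95% interval of the fold change lay within 1.5-fold in either direction for 8860 genes, which is 73.6% of those tested. This group included 949 of the called genes (59.9%), whose change was past the threshold and was at the same time limited to less than 1.5-fold. It also included 7911 of the 10452 genes not called (75.7%). For the other 2541 genes not called the interval reached beyond 1.5-fold, so that a change of this size could be neither shown nor bounded at this depth. In the least abundant class 10.6% of the genes were limited in this way, and in the most abundant class 96.3%. Within 1.2-fold the interval held for 3457 genes (28.7%), and within 2-fold for 10767 (89.5%).

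The groups were also compared library by library. Of the 1583 called genes, 1574 (99.4%) had groups that did not overlap, which the calls, made on these same libraries, largely fix. In these genes each library at 0 mM was above or below each library at 25 mM, including 893 of the 897 higher and 681 of the 686 lower. Groups that did not overlap were found in 3957 genes in all (32.9%), 2052 higher and 1905 lower, and in 2383 (22.8%) of the genes not called. The response was also read in each library without glucose. These genes were called on the same libraries, which favors genes that are even across them, so the values are a description. Against the mean of the libraries at 25 mM, the median log2 difference of the genes called higher was 0.401, 0.402 and 0.368 in replicates 1, 2 and 3 at 0 mM, and that of the genes called lower was -0.322, -0.329 and -0.302. Replicate 3 was the lowest in both directions, by less than 0.04.

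Replicates varied more without glucose than with it. The biological coefficient of variation, the replicate spread that edgeR estimates beyond counting error, was 6.95% over the 6 libraries, 4.9% for the 3 at 25 mM and 8.51% for the 3 at 0 mM. The spread at 0 mM was largest in the pairs with replicate 2, at 8.97% for replicates 1 and 2 and 10% for replicates 2 and 3, against 6.28% for replicates 1 and 3. All pairs at 25 mM lay between 4.06% and 5.39%. Without 0 mM replicate 2 the value over the remaining libraries was 5.41%, and 1565 genes were called. Of the tested genes, 6773 (56.3%) had the larger standard deviation at 0 mM and 5262 (43.7%) at 25 mM. In the least abundant class the median coefficient of variation was 21.4% at 0 mM and 21.7% at 25 mM, close to the 18.8% that counting alone gives, whereas in the most abundant class it was 4.41% and 3.45%, against 2.19% from counting. The difference in spread between the groups was not tested.

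**Figure D4:**
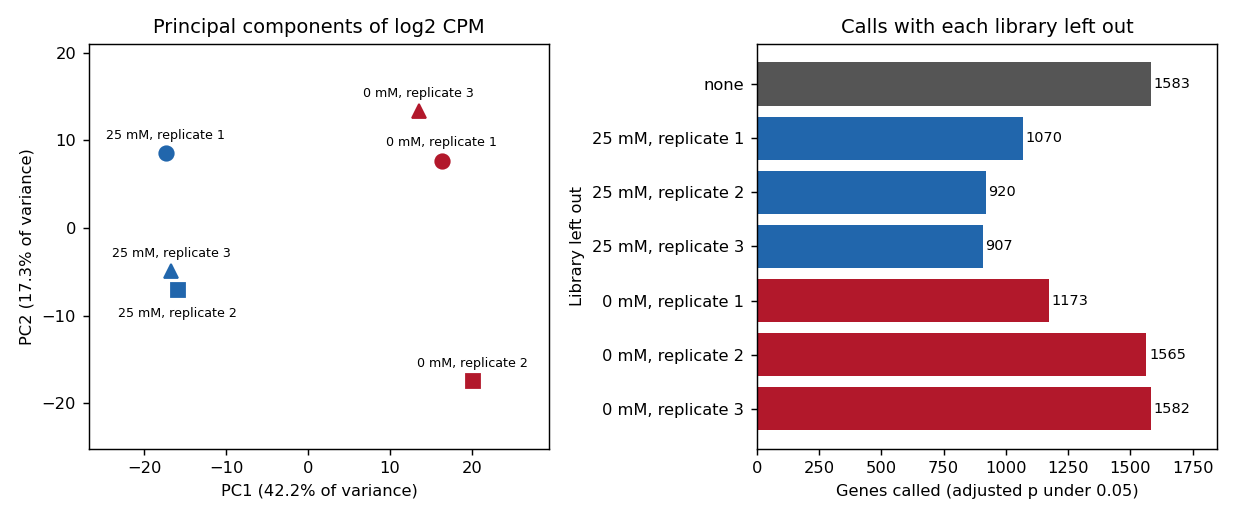
Left, the 6 HU-HSA-2 libraries on the first 2 principal components of log2 CPM, with libraries at 25 mM glucose in blue and at 0 mM in red. Right, the number of genes called in all 6 libraries (grey) and with single libraries left out. The glucose groups separate on the first component, 0 mM replicate 2 lies apart on the second, and the bars range from 907 to 1583 genes.

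Distances were also measured between single libraries. Between libraries of a group, the median absolute difference in log2 CPM was 0.0978 to 0.129, and between libraries of different groups it was 0.157 to 0.189. The smallest distance between groups was that of 25 mM replicate 1 and 0 mM replicate 3 (0.157), and the largest that of 25 mM replicate 1 and 0 mM replicate 2 (0.189). By this measure every pair from different groups was farther apart than every pair from the same group. By the chi-square statistic of the counts over its degrees of freedom they were not, since 0 mM replicates 2 and 3 (9.13) lay slightly farther apart than 25 mM replicate 1 and 0 mM replicate 3 (9.05).

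When single libraries were left out, the number of calls moved more with the libraries at 25 mM than with those at 0 mM. The count was 1070, 920 and 907 without replicates 1, 2 and 3 at 25 mM, and 1173, 1565 and 1582 without replicates 1, 2 and 3 at 0 mM. Of the 1583 genes, 64.7%, 56.2% and 55.7% were still called without a library at 25 mM, and 69.5%, 83.7% and 80.4% without one at 0 mM. Without replicates 1, 2 and 3 at 25 mM, the falling genes went from 686 to 450, 338 and 343, and the rising genes from 897 to 620, 582 and 564.

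No tested gene went between a count of 0 in all libraries of a group and at least 10 counts over the other group. A count of 0 in all 3 libraries at 25 mM with at least 10 counts over the 3 at 0 mM was found for 11 identifiers, and the reverse for 3 identifiers. Their highest sums were 17 and 14 counts over the group, and none of these identifiers passed the filter for testing, so that the calls above do not cover them. When no filter was applied, edgeR's quasi-likelihood test called 4 of the 11 and all 3 of the 3 (adjusted p = 0.0117 to 0.0841 and 0.0165 to 0.0316). All of these identifiers had an unadjusted p-value under 0.05. They were picked for this difference in the same libraries, so these p-values largely restate the choice. In that fit 2086 genes were called, of the 17626 identifiers with a count in at least 1 library.

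The symbols of 17 genes described here were taken from the identifiers that the study lists for its RT-qPCR. Of 7 stress-response genes, 1 was higher, 3 were lower and 3 did not pass the threshold, against 13.2% of all genes called. Their median log2 fold change was -0.22, in a range from -0.68 to 0.45, beside a median of -0.005 over all tested genes. The study chose these genes in its own cell lines, so they are not an independent sample of the response. ATF4, the transcription factor of the integrated stress response, was at 629, 654 and 647 CPM at 25 mM and at 550, 569 and 541 CPM at 0 mM. ASNS, which makes asparagine from aspartate and glutamine and is a target of ATF4, was at 203, 200 and 198 CPM and fell to 125, 119 and 132 CPM. CHAC1, which degrades glutathione, went from 30.2, 34 and 31.4 CPM to 23.1, 26.7 and 20.6 CPM. These 3 genes were lower in each library without glucose, with log2 fold changes of -0.22 (SE 0.04) for ATF4, -0.68 (SE 0.05) for ASNS and -0.44 (SE 0.1) for CHAC1. By edgeR's quasi-likelihood test the adjusted p-values were 0.00413 for ATF4, 2.53e-06 for ASNS and 0.0117 for CHAC1. The call of ATF4 was lost with limma on log2(TPM + 1) and no filter (adjusted p = 0.0758, the highest of 19 alternatives, which ran from 3.05e-04). The fall of ASNS was larger in size than the changes of 95.6% of the tested genes. The call of CHAC1 was lost without 25 mM replicate 2 (adjusted p = 0.0684 by edgeR's quasi-likelihood test, in a range of 3.18e-04 to 0.102 over its alternatives).

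DDIT3 moved the other way. DDIT3, a transcription factor induced by stress of the endoplasmic reticulum, was at 22.1, 23.6 and 22.6 CPM at 25 mM and at 30.9, 32.1 and 30.6 CPM at 0 mM. Its groups lay well apart, with a log2 fold change of 0.45 (SE 0.08, adjusted p = 0.0025 by edgeR's quasi-likelihood test), a ratio of 1.37 with a 95% interval of 1.21 to 1.55. SLC7A11, the cystine importer, was also higher in each library at 0 mM, at 20.9, 21.6 and 18.5 CPM against 16.9, 15 and 17.6 CPM, but did not pass the threshold (log2 fold change 0.30, adjusted p = 0.0845 by edgeR's quasi-likelihood test). MTHFD2, a mitochondrial enzyme of one-carbon metabolism, had a log2 fold change of -0.08, and its 95% interval limited a change to between 0.863 and 1.03 times the level at 25 mM. SESN2, a stress-induced regulator of mTORC1 signalling, had 5.1, 6.79 and 5.97 CPM against 5.09, 6.37 and 3.66 CPM. At this level its 95% interval on the log2 scale ran from -0.71 to 0.22, so that a moderate fall and a small rise were both possible.

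Of the genes of proline synthesis, ALDH18A1, which catalyzes the first steps from glutamate, rose from 178, 180 and 178 CPM to 212, 211 and 213 CPM. The replicates of ALDH18A1 were tight and its groups did not overlap, with a log2 fold change of 0.25 (SE 0.05, adjusted p = 0.00327 by edgeR's quasi-likelihood test). PYCR1, which catalyzes the last step in mitochondria, had a log2 fold change of -0.18 that did not pass the threshold (adjusted p = 0.11 by edgeR's quasi-likelihood test). Its replicate 2 at 0 mM (214 CPM) lay among the libraries at 25 mM (210, 231 and 215 CPM), while replicates 1 and 3 (174 and 190 CPM) lay below them. Without 0 mM replicate 2 the log2 fold change of PYCR1 was -0.264, and it passed the threshold (adjusted p = 0.00509 by edgeR's quasi-likelihood test, in a range of 0.00509 to 0.339 over its alternatives).

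Of the endothelial markers, KDR fell from 285, 290 and 303 CPM to 256, 256 and 240 CPM, a log2 fold change of -0.22 (SE 0.05, adjusted p = 0.00898 by edgeR's quasi-likelihood test). The call of KDR was kept in 14 of 19 alternatives. It was lost without 25 mM replicate 3 (adjusted p = 0.0665) and with all 12 libraries fitted together (0.0902) by edgeR's quasi-likelihood test, and with limma on TPM in each form (0.0679 to 0.103), in a range from 0.00162. PECAM1 was lower in each library at 0 mM, at 2120, 2250 and 2220 CPM against 2380, 2350 and 2350 CPM, but its log2 fold change of -0.10 did not pass the threshold (adjusted p = 0.0989 by edgeR's quasi-likelihood test). With library totals alone as the scaling it did (adjusted p = 0.0475 by edgeR's quasi-likelihood test, in a range of 0.0475 to 0.326 over its alternatives). VWF had 1.28, 3.63 and 3.73 CPM at 25 mM and 3.65, 3.15 and 2.89 CPM at 0 mM, groups that overlapped widely. The list held 0 rises, 1 fall and 2 genes that did not pass, against 13.2% of all genes called, with a median log2 fold change of -0.1 beside -0.005 over all tested genes.

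Of 5 reference genes for RT-qPCR, B2M, the light chain of MHC class I, rose from 237, 232 and 234 CPM to 267, 298 and 272 CPM (log2 fold change 0.25, SE 0.05, adjusted p = 0.00617 by edgeR's quasi-likelihood test). The call of B2M was kept in 15 of 19 alternatives, which ran from an adjusted p of 1.97e-04. It was lost with limma on TPM in each form (0.0722 to 0.138) and with all 12 libraries in one fit of edgeR's quasi-likelihood test (0.172). The other 4 did not pass the threshold, so that 1 of 5 was called against 13.2% of all genes, with a median log2 fold change of 0.01 beside -0.005. TBP, YWHAZ and ACTB had log2 fold changes between -0.05 and 0.01, and the widest of their 95% intervals, that of TBP, ran from -0.19 to 0.16. ACTB, a cytoskeletal actin, was at 2260, 2330 and 2360 CPM with glucose and at 2290, 2390 and 2320 CPM without it. The expected counts of ACTB and YWHAZ were not whole in any of the 6 libraries, which marks reads shared with other genes. The identifier listed for RPL32, a ribosomal protein gene, was at 2.55 to 4.01 CPM at 25 mM and at 3.07 to 3.99 CPM at 0 mM. By its mean TPM over the 6 libraries it lay above only 4.1% of the tested genes (0.8 TPM at 25 mM). Ribosomal protein genes are among the most highly expressed genes of a cell and have many near-identical copies in mammalian genomes, so whether the values of this identifier are those of the expressed RPL32 gene is uncertain. Its log2 fold change of 0.13 had a 95% interval from -0.39 to 0.65.

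**Figure D5:**
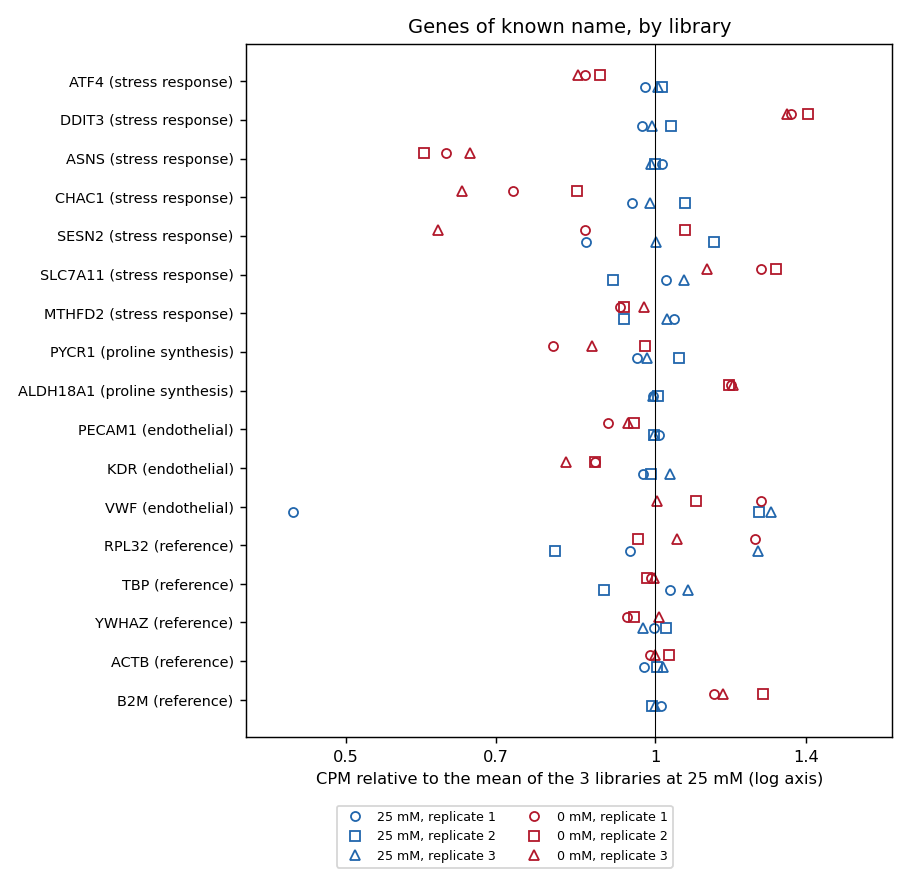
CPM of the 17 genes with a symbol in each HU-HSA-2 library, divided by the mean of the 3 libraries at 25 mM glucose (horizontal log axis, line at 1). Blue symbols are libraries at 25 mM and red symbols libraries at 0 mM, with the shape giving the replicate. The groups of ASNS, DDIT3, ALDH18A1 and B2M lie clearly apart, on the low side for ASNS and on the high side for the others, while those of VWF and RPL32 scatter widely.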

How the data were processed

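Poly(A) RNA of HU-HSA-2 was sequenced by the authors with a directional library kit, mapped to CanFam3.1 with STAR and quantified with RSEM (submitters' notes, which also name edgeR 3.42.0). The annotation release was not given in the sources used here. The deposited values are expected counts, of which 97.7% were whole (tolerance 0.005), and deposited TPM. Here the expected counts were rounded and tested in R 4.3.3 with edgeR 4.0.16 (filterByExpr, TMM, quasi-likelihood test, Benjamini-Hochberg adjustment over all genes tested, threshold 0.05), without a replicate block, on the 6 libraries of the line. The standard error is the size of the log2 fold change over the square root of F, and 95% intervals use the same error. Log2 CPM used a prior count of 2. Effective length is the expected count over TPM, for at least 10 counts. On simulated data of 12035 genes, 171 of 200 changed genes were recovered, with 5 false calls. The planted changes were of 1.5-fold or more, and both groups were drawn with the same spread. Recovery of smaller changes, or with unequal spread, was not tested.

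Named genes are 17 that the study's primer list pairs with an identifier (not every gene of that list is reported here) and, without a symbol, the 2 largest rises and 2 largest falls that passed the threshold, averaged at least 1 CPM and had groups that did not overlap. The identifiers matched 0 entries of the reference gene table, so further gene lists and sequences were not analysed here. Members and lists were chosen with earlier results of these data known. Same-numbered libraries did not deviate together (correlations across genes of 0.0066, 0.0686 and -0.0127). Alternatives were other scalings and filters, thinned counts, DESeq2 1.42.0, limma 3.58.1 on log2(TPM + 1) or log2(TPM + 0.1), the replicate block, one fit over all 12 libraries, and fits that lacked a library.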

Additional observations from a re-analysis of the deposited data

How the results depend on the processing

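The number of called genes (1583, of which 897 higher and 686 lower) was 870 (447 and 423) with limma on log2(TPM + 1), 845 (434 and 411) with log2(TPM + 0.1) and 521 (297 and 224) with log2(TPM + 1) and no filter. All 12 libraries in one fit gave 441 lower genes. The causes were not tested. With each library left out, the range was 907 to 1582 genes in all, 564 to 865 higher and 338 to 722 lower. The replicate block gave 1452 genes, and why it gave fewer was not tested. DESeq2 gave 1398, no filter on low counts 2086 and counts thinned to the smallest library 1530. Changes beyond 1 on the log2 scale (108 genes) were 49 with limma on log2(TPM + 1), 45 with the same and no filter, 154 with edgeR and no filter on low counts, and 90 to 125 with each library left out. The count beyond 1.5-fold (59) was 296 at a minimum of 1.2-fold, 13 at 2-fold, and 38 to 61 with each library left out.

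The share called in the most abundant class (23.3%) ranged from 13.1% to 23.5% with each library left out, and that in the least abundant class (4.57%) from 2.29% to 4.83%. Without a filter the latter was 0%, since the class then holds the genes with the fewest counts. The biological coefficient of variation (6.95%) ranged from 5.41% to 7.6%. The gain of the rising genes (2.89 points) was 2.7 with library totals alone, 3.51 without a filter, 2.62 with the replicate block and 2.68 without genes whose counts were not whole, and 2.28 to 3.19 with each library left out. The loss of the falling genes (-1.9 points) was -2.24 with library totals, -2.32 without a filter, and -2.13 to -1.11 with each library left out.

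For the named genes, 388 values were compared, of which 363 agreed in sign and call, 12 lost the call, 3 gained it and 10 changed sign. The lost calls were those of ATF4 (1), CHAC1 (2), KDR (5) and B2M (4), and the gained ones those of PYCR1 (2) and PECAM1 (1). The sign changes were in genes that were not called. ACTB was -0.011 with library totals and -0.014 with limma on TPM in each form, and the other changes came with a library left out, where the log2 fold change ranged from -0.19 to 0.366 for VWF, from -0.021 to 0.322 for RPL32, from -0.091 to 0.044 for TBP (0.014 without 25 mM replicate 1) and from -0.008 to 0.024 for ACTB.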
